A study of Mus musculus with 4 samples.

Results

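The 10 genes described here encode the writers and readers of histone H3 lysine 9 (H3K9) methylation and their cofactors: Suv39h1, Suv39h2, Setdb1, Ehmt1, Ehmt2, Atf7ip, Trim28, Cbx1, Cbx3 and Cbx5. They were chosen for their function and found by symbol, and all 10 had a row among the 11603 genes listed. RNA was sequenced from muscle stem cells of male C57BL/6 mice aged 4 to 5 months, sorted from hindlimb muscle as VCAM1+ and CD31-, CD45- and Sca1-. There were 2 control libraries and 2 libraries with a conditional knockout of Hairless (Hr), a nuclear corepressor that the series title calls a histone demethylase antagonist. Not given in the sources used here are the Cre line, the deleted part of Hr and the number of animals per library, so p-values measure the spread between these libraries, which may be technical.

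Methyl groups on H3K9 mark silent chromatin. SUV39H1 and SUV39H2 place the trimethyl mark at constitutive heterochromatin around centromeres, SETDB1 places it at repeats and silenced genes, and the EHMT1/EHMT2 pair (GLP and G9a) mainly places the mono- and dimethyl marks in euchromatin. HP1 proteins bind the methylated lysine through a chromodomain and recruit further methyltransferase, which lets the mark spread. In adult muscle, stem cells rest under the basal lamina of the fibre, and heterochromatin is part of how their nuclei differ from those of dividing myoblasts.

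Levels are RPKM, reads scaled by summed exon length and by the library size the authors set, and a pair of values always lists replicate 1 before replicate 2. The libraries held 21757211 to 34101213 reads on listed genes. Hr had 9.28 and 8.94 RPKM in the controls and 7.15 and 7.90 RPKM in the knockouts, lower but not lost, so directions rest on the sample labels. All 10 muscle stem cell markers looked for were listed, among them Pax7 with 8.23 to 13.1 RPKM. Their summed level was 2673 to 3242 RPKM in control and 4187 to 4358 RPKM in knockout, a separation carried by Sdc4 (2121 and 1582 RPKM in the controls, 3031 and 3260 RPKM in the knockouts). The other 9 summed to 1121 and 1091 RPKM against 1156 and 1098 RPKM, with overlap, and Itga7 was lower in both knockouts (90.8 and 118 RPKM against 61.9 and 49.9985 RPKM). Of 12 myofibre markers 9 were listed, with sums of 185 and 766 RPKM in the controls and 68.6 and 58.7 RPKM in the knockouts. For 7 of 7 smooth muscle and pericyte markers the sums were 345 and 498 RPKM in the controls against 167 and 245 RPKM, which rests on Acta2 (321 and 474 RPKM against 148 and 205 RPKM). The other 6 overlapped, with 24.1 RPKM in both controls against 19.1 and 39.2 RPKM. Sums overlapped between groups for 9 of 9 endothelial markers (84.0 to 112 RPKM in control, 60.1 to 103 RPKM in knockout), 9 of 9 blood markers (19.1 to 19.3 RPKM, 14.1 to 22.6 RPKM), 5 of 8 fibro-adipogenic markers (1069 to 1271 RPKM, 1091 to 1283 RPKM) and 5 of 6 Schwann cell markers (52.1 to 61.0 RPKM, 55.7 to 65.1 RPKM). Without the most abundant marker of each list, the sums of 8 blood markers (7.97 and 8.75 RPKM against 9.53 and 9.57 RPKM) and 4 fibro-adipogenic markers (267 and 223 RPKM against 456 and 297 RPKM) were higher in both knockouts, and that of 8 myofibre markers stayed lower (41.1 and 311 RPKM against 32.0 and 26.9 RPKM). Most of that blood sum was Cd68 (5.15 and 5.26 RPKM against 7.18 and 5.23 RPKM), whose groups overlapped. Among the rest of it, Cd52 was higher in both knockouts, Csf1r was lower in both, and the others overlapped. That fibro-adipogenic sum rests on Dpt (131 and 117 RPKM against 323 and 124 RPKM) and Ly6a, while Dcn and Lum overlapped. The marker left out of it, Gsn, was lower in both knockouts (1005 and 847 RPKM against 827 and 795 RPKM). No listed marker was at 0 in every library, and Pdgfra, Pi16, Clec3b, Myh2, Myh4, Tnnc2 and Sox10 were not among the genes listed. Of the sort antigens, Ptprc (CD45) was at most 0.0399 RPKM, Pecam1 (CD31) had 5.51 to 11.9 RPKM, and Ly6a (Sca1) had 47.9 and 49.5 RPKM in the controls and 77.4 and 80.7 RPKM in the knockouts. The part of these other cells in the results was not tested.

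The question for these genes was whether the RNA for the H3K9 methylation machinery differed without Hr. None of the 10 genes passed the test. The knockout mean of Ehmt1, Setdb1, Atf7ip and Ehmt2 was 0.665 to 0.759 times the control mean, that of Suv39h1 and Suv39h2 was 1.20 and 1.25 times, and that of Cbx1 was 1.01 times. limma on log2(RPKM + 0.5), with Benjamini-Hochberg adjustment over all 11603 genes, called 0 of the 10 at an adjusted p under 0.05, where it called 0.00862% of all genes. At an unadjusted limma p under 0.05 it also counted 0 of the 10, against 18% of all genes. That count was 2 with limma-voom on recovered reads, against 18.5% of all genes, and 4 with each library scaled by its reads listed, against 22.9%. Of the 10 genes, 0 had, in the authors' deposited table, an adjusted p under 0.05, against 7.84% of all genes, and the smallest value was 0.0704 for Ehmt1. Fewer cells of a type and less RNA per cell cannot be told apart in these bulk samples.

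The knockout values lay below both control values for 5 of the 10 genes, Ehmt1, Setdb1, Atf7ip, Cbx3 and Trim28, a separation seen in 26.2% of all genes. They lay above both control values for 1 gene, Suv39h1, against 25% of all genes. The groups overlapped for Ehmt2, Suv39h2, Cbx1 and Cbx5. Together 6 of 10 separated, against 51.2% of all genes, a share near the background. Scaling by the reads listed moved the all-gene median from -0.01 to -0.21 (log2), and then 8 of the 10 lay below both controls and 0 above, against 47.2% of all genes below and 11.4% above. Suv39h1 and Suv39h2 were the 2 that overlapped under that scaling. The median log2 fold change was -0.20 over the 10 genes and -0.01 over all genes. With 2 libraries a group, an exact two-sided permutation test of a single gene cannot go below p = 0.333. Without control 2, the library with the most fibre RNA, the median of the 10 was -0.14 and that of all genes was -0.0028. That fit leaves a single control library, and the part of fibre RNA in the differences was not tested.

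**Figure D1:**
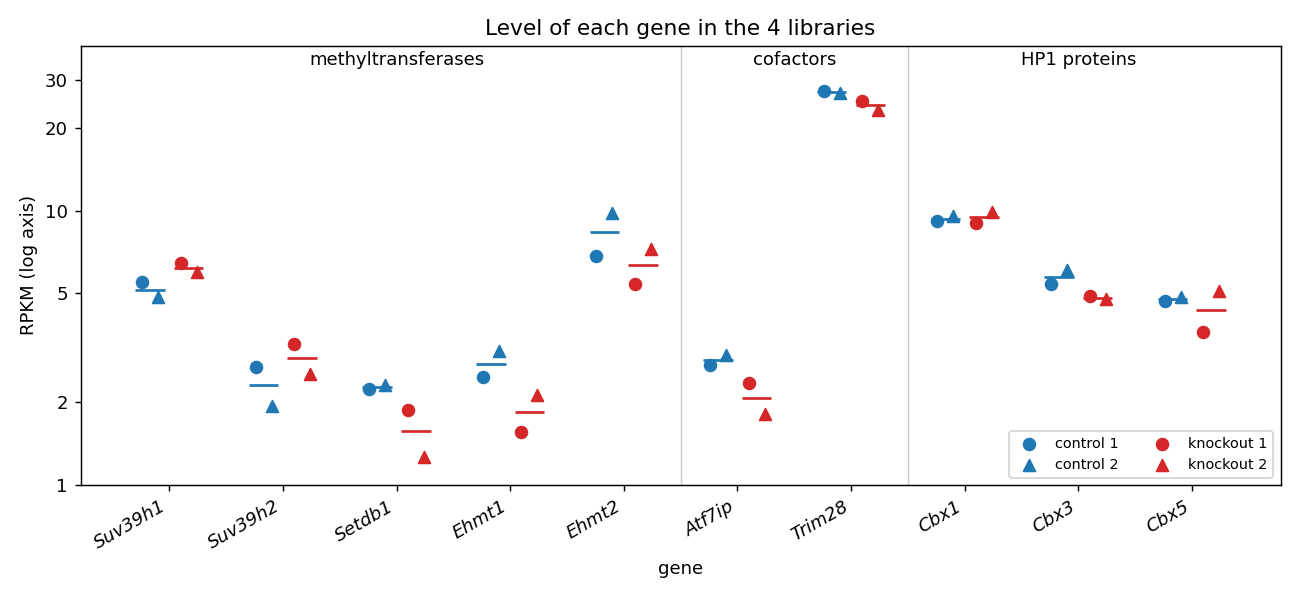
RPKM of each gene on a log axis, with control libraries in blue, knockout libraries in red, circles for replicate 1, triangles for replicate 2 and short lines for group means. Trim28 sits highest, between 23.4 and 27.4 RPKM, and the red points lie below both blue points for Setdb1, Ehmt1, Atf7ip, Trim28 and Cbx3 and above them for Suv39h1.

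Suv39h1 (chromosome X, 8061171 to 8074760, minus strand, mm10) encodes the first H3K9 methylating enzyme found in mammals, which acts at pericentric heterochromatin. It had 5.48 and 4.84 RPKM in the controls and 6.43 and 5.97 RPKM in the knockouts. Both knockout libraries were above both control libraries, by less than the test could call: the log2 fold change was 0.25 with a standard error of 0.17 and an adjusted limma p of 0.488.

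Its paralog Suv39h2 (chromosome 2, 3455815 to 3475031, minus strand) encodes an enzyme with the same activity that is best known from the male germ line. The gene had 2.69 and 1.94 RPKM in the controls and 3.27 and 2.54 RPKM in the knockouts. Its groups overlapped, because knockout 2 was below control 1. The difference was 0.28 (log2) with a standard error of 0.22 and an adjusted limma p of 0.543. Suv39h1 stood at 1.97 to 2.49 times the RPKM of Suv39h2 in every library, with no separation of the groups in that ratio. Its size depends on the exon lengths used. These were 5270 bases for Suv39h1, against 3116 for its longest GENCODE transcript, and 4410 against 4327 for Suv39h2.

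Part of each SUV39H gene and of Setdb1 overlaps exons on the opposite strand in GENCODE M21, and whether the authors' counting used strand is not given in the sources used here. For Suv39h1 these are 767 of 5270 exon bases, shared with the antisense transcript Gm14820, and for Suv39h2 they are 357 of 4410, shared with Dclre1c, a DNA end-joining nuclease, and 83 shared with the antisense transcript Gm13184. Without strand, reads in those bases cannot be told apart. Dclre1c had 2.26 and 1.50 RPKM in the controls and 2.01 and 2.33 RPKM in the knockouts, and Gm14820 and Gm13184 were not among the genes listed. Scaled by the reads listed, the log2 fold changes were 0.03 for Suv39h1 and 0.08 for Suv39h2, and the Suv39h1 groups overlapped.

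Setdb1 (chromosome 3, 95323525 to 95357202, minus strand) encodes the methyltransferase that silences endogenous retroviruses and acts with KRAB zinc finger proteins. By mean over all libraries it was the least abundant of the 10 genes, though its range overlapped that of Ehmt1. It had 2.23 and 2.31 RPKM in the controls and 1.88 and 1.26 RPKM in the knockouts. The controls lay close together and knockout 2 stood lowest, on 142 reads, a count whose own counting error is 8.39%. On the log2 scale the difference was -0.44 with a standard error of 0.20 and an adjusted limma p of 0.326. Without knockout 2 it was -0.22, and without knockout 1 it was -0.66. Its longest GENCODE transcript shared 6.66% of its 50-base stretches with 3 other genes, so part of its reads could have been dropped or split. On the opposite strand its exons overlap those of Cers2, a ceramide synthase gene, by 75 bases and those of Gm37500 by 249 bases. Cers2 was far more abundant, with 74.4 and 88.0 RPKM in the controls and 68.1 and 80.8 RPKM in the knockouts, and the part of its reads in the Setdb1 values was not tested.

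Atf7ip (chromosome 6, 136518802 to 136611038, plus strand) encodes the partner that stabilises SETDB1 in the nucleus. It had 2.75 and 2.97 RPKM in the controls and 2.34 and 1.81 RPKM in the knockouts. Knockout 2 was the lowest library, as it was for Setdb1 and Trim28. The log2 fold change was -0.39 with a standard error of 0.18 and an adjusted limma p of 0.336. Without knockout 2 it was -0.24. Atf7ip stood at 1.23 and 1.28 times the RPKM of Setdb1 in control and at 1.25 and 1.44 times in knockout. The ratio of the partners overlapped between groups, and its size depends on the exon lengths used.

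Trim28 (chromosome 7, 13024152 to 13031035, plus strand) encodes KAP1, the scaffold that joins KRAB zinc finger proteins to SETDB1 and HP1. It was the most abundant of the 10, with 27.4 and 27.0 RPKM in the controls and 25.1 and 23.4 RPKM in the knockouts. The knockout libraries were lower by a small margin, and the log2 fold change was -0.16 with a 95% interval of -0.50 to 0.17 and an adjusted limma p of 0.566. Against Setdb1, Trim28 stood at 12.3 and 11.7 times its RPKM in control and at 13.3 and 18.6 times in knockout.

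Ehmt1 (chromosome 2, 24789928 to 24919614, minus strand) encodes GLP, and Ehmt2 (chromosome 17, 34898469 to 34914052, plus strand) encodes G9a. The 2 proteins work as a heterodimer. Ehmt1 had 2.48 and 3.07 RPKM in the controls and 1.57 and 2.12 RPKM in the knockouts. Both knockout values were below both control values, and the group means, 2.77 ± 0.420 and 1.84 ± 0.394 RPKM (SD, n = 2), differed by a ratio of 0.665, the farthest from 1 among the 10 genes. The log2 fold change was -0.49 with a standard error of 0.20, a 95% interval of -0.99 to 0.02 and an adjusted limma p of 0.291.

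Ehmt2 was more abundant, with 6.86 and 9.86 RPKM in the controls and 5.40 and 7.29 RPKM in the knockouts. Its groups overlapped, since knockout 2 was above control 1. A log2 fold change of -0.37 was fitted with a standard error of 0.24 and an adjusted limma p of 0.475. It depended on the controls: it was -0.61 without control 1 and -0.12 without control 2. For both genes replicate 2 was the higher library in each group. The ratio was higher in both knockouts, with Ehmt2 at 2.77 and 3.21 times the RPKM of Ehmt1 in control and at 3.45 and 3.43 times in knockout. Such a separation is common, as 51.2% of single genes separated in either direction, and the balance of the pair was not tested.

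**Figure D2:**
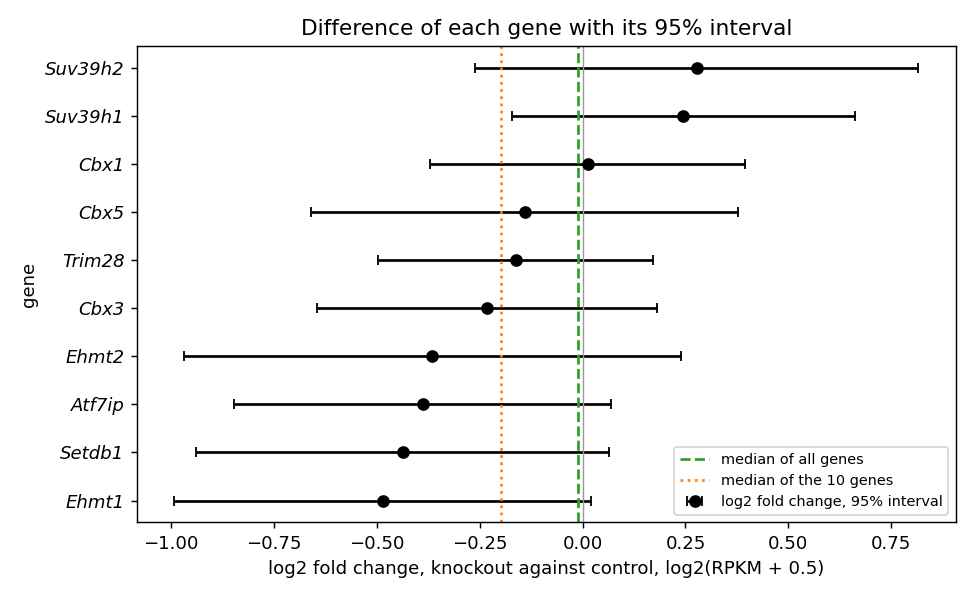
Log2 fold change of each gene (points) with its 95% interval from limma (bars), on the log2(RPKM + 0.5) scale, for 2 knockout against 2 control libraries. Every interval includes 0 and lies within -0.99 to 0.82, and the dotted line marks the median of the 10 genes, -0.20, beside the dashed median of all genes, -0.01.

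The intervals give the size of change that these libraries leave room for. On the log2(RPKM + 0.5) scale the lowest bound among the 10 genes was -0.99, for Ehmt1, and the highest was 0.82, for Suv39h2. Cbx1 had the narrowest interval among the HP1 genes, -0.37 to 0.40. These intervals do not show that the groups were alike.

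The HP1 family has 3 members. Cbx1 (HP1 beta, chromosome 11, 96789127 to 96808640, plus strand) and Cbx5 (HP1 alpha, chromosome 15, 103191544 to 103239816, minus strand) are found mainly at heterochromatin, and Cbx3 (HP1 gamma, chromosome 6, 51470360 to 51483704, plus strand) is also found in euchromatin and along transcribed genes. Cbx1 had 9.19 and 9.56 RPKM in the controls and 9.0004 and 9.94 RPKM in the knockouts. The groups overlapped fully, with a log2 fold change of 0.01 and an adjusted limma p of 0.980. The sign of that value is not fixed, as it was -0.21 when scaled by the reads listed.

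Cbx3 had 5.42 and 6.10 RPKM in the controls and 4.89 and 4.75 RPKM in the knockouts. Both knockout libraries were below both controls, with a log2 fold change of -0.23, a standard error of 0.17 and an adjusted limma p of 0.505. A share of 4.00% of the 50-base stretches of its longest GENCODE transcript also occurred in transcripts of 11 other genes, 9 of them pseudogenes, so a small part of its reads could have been split or dropped by the authors' counting.

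Cbx5 had 4.69 and 4.87 RPKM in the controls and 3.60 and 5.09 RPKM in the knockouts. Knockout 1 was the lowest library and knockout 2 the highest, and the limma adjusted p was 0.760. The log2 fold change was -0.14 with all libraries and 0.08 without knockout 1.

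Summed over the 3 genes, HP1 RNA came to 19.3 and 20.5 RPKM in the controls and 17.5 and 19.8 RPKM in the knockouts, with overlap. Cbx1 made up 47.6% and 46.6% of that sum in control and 51.4% and 50.3% in knockout. Cbx3 made up 28.1% and 29.7% in control and 28.0% and 24.0% in knockout. Cbx5 made up 24.3% and 23.7% in control and 20.6% and 25.7% in knockout. Cbx1 was the main HP1 transcript in every library, and its share was somewhat higher in both knockout libraries. The level of Cbx1 itself overlapped between groups, and the shares are formed from the same values as the single genes.

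**Figure D3:**
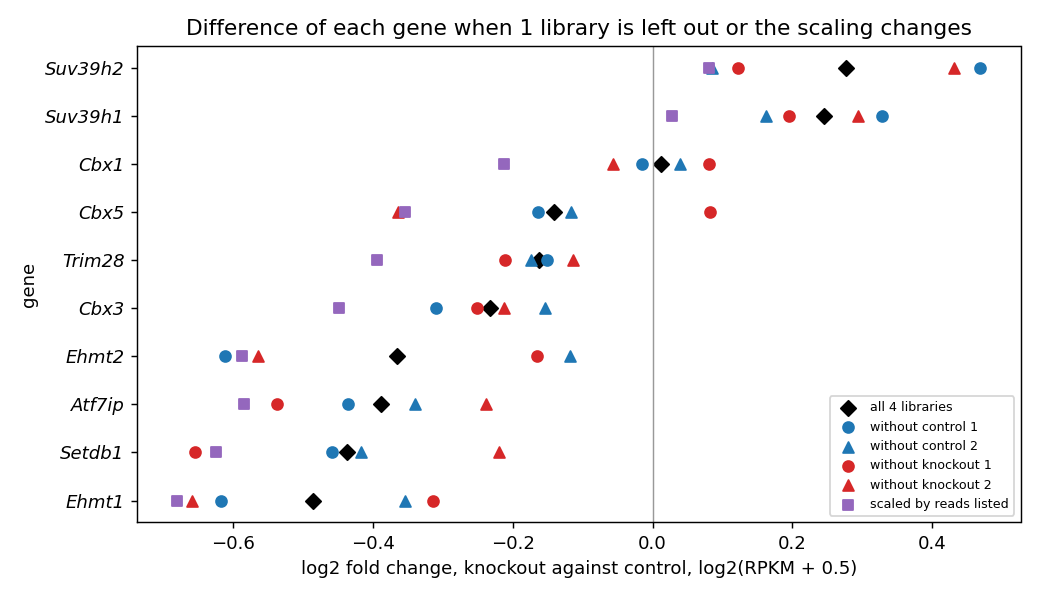
Log2 fold change of each gene with all 4 libraries (black diamonds), with 1 library left out (blue for a control, red for a knockout) and with scaling by the reads listed (purple squares). Ehmt1, Setdb1, Atf7ip, Ehmt2, Cbx3 and Trim28 stay below 0 in all of these, Suv39h1 and Suv39h2 stay above it, and Cbx1 and Cbx5 lie on both sides.

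The start regions of the 3 HP1 genes are shown because 2 of them face another gene: Cbx3 and Cbx5 each start within 1000 bases of a gene for an hnRNP protein on the opposite strand, and Cbx1 has no such neighbour in GENCODE M21. Among the other genes Ehmt2 has one (C2) and Atf7ip has one (Gm44140), neither of them listed. Each sequence covers 250 bases before and 50 after a RefSeq start (GRCm38.p6, which has the mm10 coordinates) and is written 5' to 3' on the gene's strand. Capitals mark GGGCGG (the SP/KLF box), CCAAT, and the E2F motifs TTTCGCGC and TTTGGCGC, searched on both strands. RefSeq gives 2 starts each for Cbx3 and Cbx5, and the one nearest the start of the gene in the deposited table is shown. The windows are chr11:96788885-96789184 for Cbx1, chr6:51470366-51470665 for Cbx3 and chr15:103239803-103240102 for Cbx5.
Cbx1: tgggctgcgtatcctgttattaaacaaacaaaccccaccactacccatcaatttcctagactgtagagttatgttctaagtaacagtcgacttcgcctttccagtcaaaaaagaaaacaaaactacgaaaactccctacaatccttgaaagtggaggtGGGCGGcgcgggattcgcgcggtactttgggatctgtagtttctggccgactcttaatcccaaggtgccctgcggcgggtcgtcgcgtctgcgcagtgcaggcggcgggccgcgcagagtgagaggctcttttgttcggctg
Cbx3: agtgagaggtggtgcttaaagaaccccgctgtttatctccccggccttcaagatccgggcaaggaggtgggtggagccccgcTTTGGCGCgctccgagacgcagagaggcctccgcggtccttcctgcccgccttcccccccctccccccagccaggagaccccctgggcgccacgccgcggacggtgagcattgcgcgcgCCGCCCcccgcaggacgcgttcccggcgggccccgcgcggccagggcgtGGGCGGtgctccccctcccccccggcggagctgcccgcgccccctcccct
Cbx5: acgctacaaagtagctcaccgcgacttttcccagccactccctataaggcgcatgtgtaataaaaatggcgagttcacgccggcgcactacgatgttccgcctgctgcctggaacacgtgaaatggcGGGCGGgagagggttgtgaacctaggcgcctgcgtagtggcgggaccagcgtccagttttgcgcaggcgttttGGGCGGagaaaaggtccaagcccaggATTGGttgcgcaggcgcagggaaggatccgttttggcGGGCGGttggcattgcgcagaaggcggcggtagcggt

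The Cbx3 window held 34 CpG dinucleotides and had 75.3% G and C, the Cbx5 window held 29 with 60.3%, and the Cbx1 window 22 with 52.7%. The windows not shown held 32 CpG, 71.7% G and C and 0 GGGCGG for Cbx3, and 8 CpG, 54.7% and 1 GGGCGG for Cbx5. The median over the 11927 promoters of genes in the expression table was 21 CpG. GGGCGG was present 3 times in the Cbx5 window shown, 2 times in that of Cbx3 and 1 time in that of Cbx1. It occurred in at least 1 annotated promoter of all 10 genes, in 13 of their 14 windows, against 63.6% of promoters of genes in the table and 35.7% of all 32851 promoters. An E2F motif occurred in 1 of the 14 windows, that of Cbx3, against 1.56% of promoters of genes in the table and 0.813% of all promoters. CCAAT occurred in 4 of the 14, against 37.4% of all promoters. These matches describe letters and are not binding sites.

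The start of Hnrnpa2b1 lies 466 bases from that of Cbx3, and the start of Hnrnpa1 lies 616 bases from that of Cbx5. Both neighbours encode abundant proteins that bind and splice nuclear RNA. Hnrnpa2b1 had 481 and 452 RPKM in the controls and 728 and 665 RPKM in the knockouts, a log2 fold change of 0.58 at an adjusted limma p of 0.188. Cbx3 had its lower values in the knockout libraries in which Hnrnpa2b1 had its higher ones. Hnrnpa2b1 stood at 88.7 and 74.1 times the RPKM of Cbx3 in control and at 149 and 140 times in knockout. That ratio had to separate, because Hnrnpa2b1 lay above both controls, as did 25% of all genes, and Cbx3 below both, as did 26.2%. It adds no evidence to the values of the single genes, and a link between the neighbours was not tested.

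Hnrnpa1 had 165 and 175 RPKM in the controls and 230 and 204 RPKM in the knockouts, a log2 fold change of 0.35 at an adjusted limma p of 0.281. Scaled by the reads listed, its groups overlapped. Its ratio to Cbx5 was 35.1 and 35.9 in control and 63.7 and 40.1 in knockout. Neither hnRNP gene passed the limma test, and the adjusted p in the authors' deposited table was 0.0214 for Hnrnpa2b1 and 0.222 for Hnrnpa1.

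**Figure D4:**
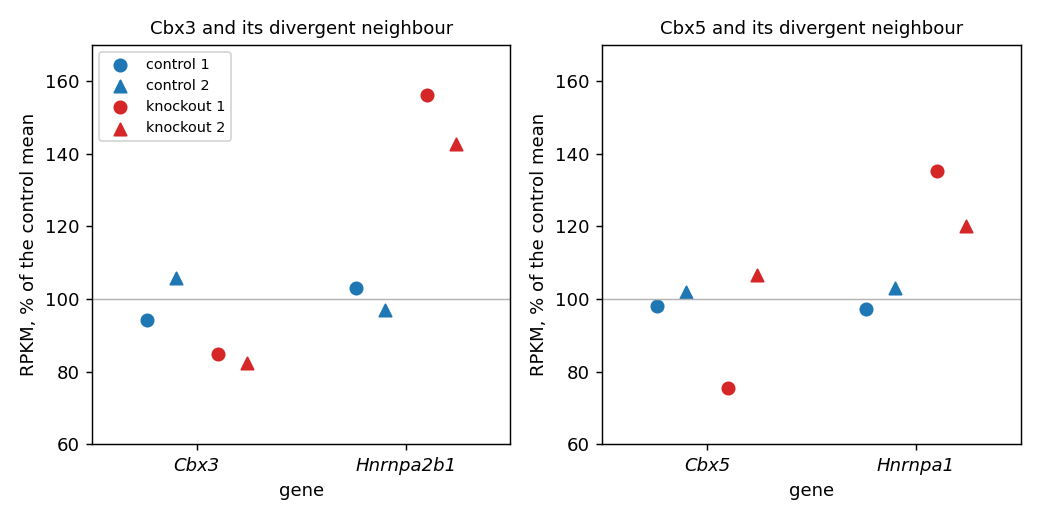
RPKM of Cbx3 and Cbx5 and of their divergent neighbours in each library, as a percent of the gene's control mean, with controls in blue and knockouts in red. Both knockout points of Hnrnpa2b1 and Hnrnpa1 lie above both control points on the authors' scale (those of Hnrnpa1 overlap when scaled by the reads listed), both of Cbx3 lie below them, and those of Cbx5 lie on both sides.

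By mean level over the 4 libraries the order was Trim28 (25.7 ± 1.83 RPKM, SD, n = 4), Cbx1 (9.43 ± 0.417), Ehmt2 (7.35 ± 1.86), Suv39h1 (5.68 ± 0.683), Cbx3 (5.29 ± 0.611), Cbx5 (4.56 ± 0.660), Suv39h2 (2.61 ± 0.543), Atf7ip (2.47 ± 0.508), Ehmt1 (2.31 ± 0.631) and Setdb1 (1.92 ± 0.479). Trim28 stood apart from Cbx1, and Cbx5 from Suv39h2. The other neighbours in this order had ranges that overlapped over the libraries. The order depends on the exon lengths used for RPKM. For Atf7ip that length was 19678 bases, against 8059 for its longest GENCODE transcript, so its place is uncertain. The levels of Suv39h1 (5270 against 3116 bases) and Cbx1 (4273 against 2377) depend on this choice as well. As percentiles of all listed genes, Trim28 lay at 77.7 to 80.6 and Setdb1 at 17.9 to 27.3. The number of reads behind a value ran from 142 for Setdb1 in knockout 2 to 2621 for Trim28 in knockout 1.

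Summed over the 5 methyltransferases the level was 19.7 and 22.0 RPKM in the controls and 18.5 and 19.2 RPKM in the knockouts. Suv39h1 and Suv39h2 together made up 41.4% and 30.8% of that sum in control and 52.3% and 44.4% in knockout. The knockout shares were both above the control shares, and these sums were formed after the values had been seen.

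Of the 63 listed genes that work with these enzymes, in the 5 lists that follow, 0 passed the limma threshold. The authors' deposited table put 3 of the 63 under an adjusted p of 0.05, against 7.84% of all genes. All 3 were lower in the knockouts: Uhrf1 (2.96e-07), Chaf1b (1.8e-06) and Hells (0.000215). Of 14 other H3K9 writers and G9a/GLP partners 13 were listed, with a median log2 fold change of -0.14. Both knockout values lay below both controls for 5, against 26.2% of all genes, and above for 2, against 25%. Cdyl, a chromodomain corepressor that binds G9a, had 4.09 and 4.95 RPKM in the controls and 3.10 and 3.18 RPKM in the knockouts, at an adjusted limma p of 0.268. L3mbtl2, a repressor that binds methylated histones, had 0.769 and 0.709 RPKM in the controls against 0.443 and 0.553 RPKM. The most abundant, the remodeller gene Chd4 and the methyltransferase-like gene Prdm2, had log2 fold changes of 0.02 and -0.17.

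The list of the HUSH silencing complex and SETDB1 partners had 9 of 10 genes in the table and a median of -0.19. Below both controls were 3 genes, against 26.2% of all genes, and 1 was above, against 25%. Chaf1b encodes a subunit of the histone chaperone CAF-1, which loads histones behind the replication fork. It had 0.733 and 0.939 RPKM in the controls and 0.225 and 0.304 RPKM in the knockouts, at an adjusted limma p of 0.147. The knockout values rest on 29 and 25 reads. Morc3, an ATPase of silenced chromatin, had 6.44 and 6.48 RPKM in the controls against 5.27 and 4.35 RPKM. Resf1, a factor for silencing of retroviral repeats, and Mbd1, which binds methylated DNA and SETDB1, were the most abundant, with log2 fold changes of -0.05 and 0.18.

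Of 18 readers and effectors of heterochromatin all were listed, with a median of -0.12. Below both controls were 6, against 26.2% of all genes, and 5 were above, against 25%. Uhrf1, which binds methylated H3K9 and maintains DNA methylation at replication, had 1.45 and 2.27 RPKM in the controls and 0.664 and 0.457 RPKM in the knockouts, at an adjusted limma p of 0.153. Hells, a remodeller of heterochromatin, had 0.299 and 0.379 RPKM in the controls against 0.156 and 0.0591 RPKM. Those Hells values rest on 50 and 57 reads in the controls and 29 and 7 reads in the knockouts. Ctbp1, a corepressor, and Hdac1, a histone deacetylase, were the most abundant, with log2 fold changes of -0.19 and 0.22.

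The enzymes that remove the mark were listed for 10 of 11, with a median of -0.13. Below both controls were 3, against 26.2% of all genes, and 2 were above, against 25%. Kdm1a, a demethylase best known for H3K4 that also acts on H3K9, had 62.1 and 61.3 RPKM in the controls and 46.5 and 38.6 RPKM in the knockouts, a log2 fold change of -0.54 at an adjusted limma p of 0.191. Kdm4c, a demethylase of trimethylated H3K9, had 2.18 and 2.33 RPKM in the controls against 1.72 and 1.61 RPKM. Jmjd1c, of the KDM3 family, had a log2 fold change of 0.21.

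KRAB zinc finger repressors are DNA-binding proteins that bring TRIM28 and SETDB1 to their targets. Of 18 zinc finger genes taken as this class 13 were listed, with a median of -0.11. Whether each has a KRAB domain was not checked. Below both controls were 6, against 26.2% of all genes, and 1 was above, against 25%. Zfp445, a factor of genomic imprinting, had 3.89 and 3.88 RPKM in the controls and 2.58 and 2.71 RPKM in the knockouts, at an adjusted limma p of 0.229. Zfp689 had 1.48 and 1.55 RPKM in the controls against 2.12 and 2.19 RPKM, and Zkscan3 and Zfp809, a repressor of retroviral repeats, had log2 fold changes of 0.06 and 0.04.

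Proliferation markers are given beside these genes because many chromatin genes are more abundant in dividing cells. All 20 were listed, with a median of -0.96 and 0 past the limma threshold over all genes. Below both controls were 17, against 26.2% of all genes, and 2 were above, against 25%. At an adjusted p under 0.05 the authors' deposited table had 15 of them lower and 2 higher, against 7.84% of all genes in either direction. Aurkb, the mitotic kinase, had 1.11 and 2.21 RPKM in the controls and 0.105 and 0.0413 RPKM in the knockouts, on 8 and 2 reads. Ccnb2, a mitotic cyclin, had 4.09 and 7.09 RPKM in the controls against 1.06 and 0.711 RPKM. Pcna, the polymerase clamp, measured 72.5 and 61.7 RPKM in the controls against 116.3 and 116.0 RPKM, and Rrm2, which makes deoxynucleotides as part of ribonucleotide reductase, measured 35.9 and 20.5 RPKM in the controls against 60.5 and 47.4 RPKM. The part of proliferation in the values of the 10 genes was not tested.

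**Figure D5:**
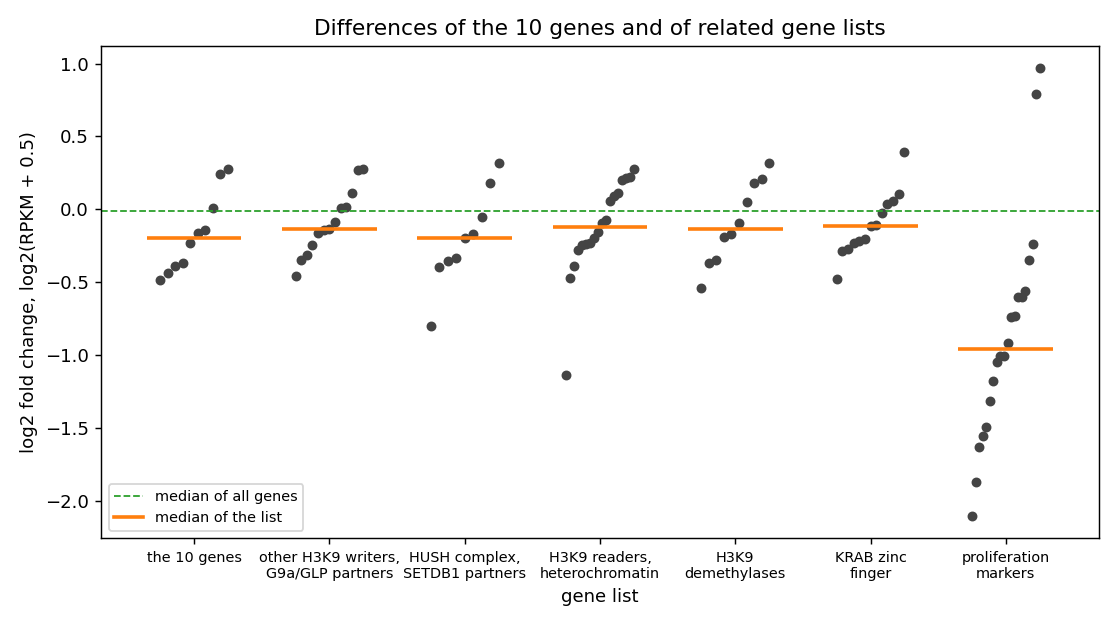
Log2 fold change of each listed gene (points, sorted within a list) for the 10 genes and the 6 related lists, with the list median in orange and the median of all genes as a dashed line. The 10 genes have a median of -0.20, the 5 related chromatin lists lie between -0.19 and -0.11, and proliferation markers lie at -0.96.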

How the data were processed

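RNA sequencing of 4 libraries of sorted muscle stem cells, 2 control and 2 Hairless knockout, was deposited as 1 table. The tools named in the submitters' processing notes are Trim Galore, STAR, Subread's featureCounts and edgeR, with mm10 (GRCm38). Not given in the sources used here are versions, settings and the filter that left 11603 genes. Each library was made from 10 ng of total RNA with a low-input full-length kit, per the labels' protocols.

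The per-sample columns were read as RPKM of the authors: multiplied by exon length, 100% of values in each column were whole multiples of the value of 1 read (tolerance 0.01). The authors' library sizes were 85.9% and 92.4% of the reads listed in the controls and 75.7% and 75.5% in the knockouts. Compared with scaling by the reads listed, the authors' scaling therefore raised both knockout libraries relative to both control libraries. Why these percentages differed by group was not tested. The deposited group means and standard errors were not used. The q-value column is the authors' own comparison. Columns named Ct were taken as control and, since the labels do not spell out Fl, the others as knockout.

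The test was limma 3.58.1 in R 4.3.3 on log2(RPKM + 0.5) of all genes, with a mean-variance trend, no term besides genotype and Benjamini-Hochberg adjustment at 0.05. The log2 fold changes are on this scale, which understates differences of low genes. The fit and the recovery of reads were tested on simulated data. Alternatives changed the pseudocount, filter, scaling, test, replicate block and libraries used.

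The members and lists were chosen with earlier results of these data known. All 10 members are named. Of each related list the text names members past the threshold or, where none passed, the 2 with the smallest p and the 2 with the highest mean RPKM, and genes with a start within 1000 bases of a member's on the opposite strand. List genes were matched by symbol or by Entrez ID through RefSeq synonyms, and 11594 of the 11603 IDs were in that table. RefSeq promoters were found for all 10 members.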

Additional observations from a re-analysis of the deposited data

How the results depend on the processing

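No alternative called any of the 10 genes over all genes, and 116 of the 120 fold changes under the 12 alternatives kept their sign and side of the threshold. The exceptions were Cbx1, at -0.21 when scaled by the reads listed and -0.056 to 0.080 when 1 library was left out (below 0 without control 1, at -0.015, and without knockout 2), and Cbx5, at -0.36 to 0.082 when 1 was left out (0.082 without knockout 1). Where 1 library is left out, the lone one is assumed to vary like the other group. The smallest adjusted p of any of the 10 was 0.0895, for Ehmt1 with the replicate number as a block. The labels do not say that the numbers pair the samples. Deviations from the group mean correlated with r = 0.41 between same-numbered libraries over 10007 genes, and the block raised the genes called from 1 to 1004. At an unadjusted p under 0.05 the count of the 10 was 0 as reported, 4 when scaled by the reads listed (Ehmt1, Setdb1, Atf7ip and Trim28, against 22.9% of all genes), 3 with the block (Ehmt1, Setdb1 and Ehmt2, against 29.9%), 2 with limma-voom on recovered reads (Ehmt1 and Atf7ip, against 18.5%), 1 without the trend (Ehmt1, against 18.1%), and 0 to 1 when 1 library was left out (against 7.25% to 16.6%). The median over the 10 was -0.42 when scaled by the reads listed, where that of all genes was -0.21, and -0.24 to -0.14 when 1 was left out. Groups separated for 6 to 10 of the 10 when 1 was left out, against 71.3% to 78.2% of all genes, and the 10 of 10 came without knockout 2, where 78.2% of all genes separated. Over all genes limma-voom called 11, limma without the trend 0, and leaving out 1 library 0 to 1. Depth limits the lowest genes most: among the 10, Setdb1 rested on 142 to 355 reads a library. Some genes of the related lists rested on fewer, such as Hells on 7 to 57.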

Other observations

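Some ratios between the genes, chosen after their values were seen, separated the groups. Suv39h1 stood at 2.45 and 2.09 times the RPKM of Setdb1 in control and at 3.42 and 4.73 times in knockout, and at 2.21 and 1.58 times the RPKM of Ehmt1 in control and at 4.11 and 2.81 times in knockout. Each ratio was higher in 2 of 2 knockout libraries. That had to be so, because Suv39h1 lay above both controls and Setdb1 and Ehmt1 lay below both. The ratios therefore add no evidence to the values of the single genes.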
